A study of Glycine max with 8 samples.

Results

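Of the 42748 soybean probes on the array, 65 represented stored transcripts with a mean 8 h level close to that of dry seed. Their mean level was higher after 16 h of water uptake. They were chosen by their own values. A member was well above background on all 8 arrays, its 8 h mean lay within 0.5 log2 (1.41-fold) of its dry mean, and its 16 h mean lay at least 2 log2 (4-fold) above its 8 h mean. Levels are log2 of the processed spot intensity relative to the 75th percentile of the same array. All 3 stages entered the choice, so the levels and differences of the members are descriptions and carry no test.

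The samples were whole seeds of Glycine max cultivar Suzumaru, measured dry (0 h, 2 arrays), after 8 h of imbibition (3 arrays) and after 16 h (3 arrays), each array in 1 colour. Per the labels, the seeds imbibed in darkness at 25 °C on moist cotton after a rinse that followed 1% hypochlorous acid. Uptake of more than 0.06 g of water qualified a seed at 8 h, and germination or uptake of more than 0.33 g qualified it at 16 h, so time and the selection of seeds by water uptake cannot be told apart. Per the labels, 3 portions were made from the 20 to 25 seeds of each stage ahead of milling. Replicates are therefore portions of 1 lot that hold different seeds. Their spread may be technical in part, includes differences between seeds, and does not cover separate lots. Because each stage was a mixture of all seed tissues, more RNA per cell and more cells of a type cannot be told apart.

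A mature seed is dried with a store of messenger RNA laid down during maturation on the mother plant. Imbibition returns water to the tissues, respiration and translation resume, and new transcription is added to the stored pool until the radicle emerges, which ends germination in the strict sense. A transcript that is present in the dry seed and is more abundant late in imbibition can therefore belong both to the maturing and to the germinating seed. The files name each probe by a clone or a sequence accession and give no gene name. None of the 42748 identifiers matched the 59048 genes of the RefSeq table for the Williams 82 assembly Glycine_max_v4.0 (0 matched). Sequence accessions were compared there with gene, transcript and protein identifiers, so this does not show whether a probe belongs to one of these genes. The members are therefore given by probe identifier, no gene product or pathway is assigned to them, and no seed-tissue marker could be examined.

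Of the 42748 soybean probes, 18483 passed the background flag on all 8 arrays, with 19559 to 31193 such probes on a single array. The lowest count and the highest median intensity of the negative control probes (7.49 units) both belonged to 8 h replicate 3. The counterpart in dry seed was replicate 1, with 20157 probes and 7.10 units, and the other 6 arrays lay between 3.16 and 3.92 units. The 75th percentile itself moved against the E1A spike-in RNA, a control transcript of viral sequence measured on every array. Its distance from the spike-in mean was -5.51 and -5.53 log2 in dry seed. At 8 h the distance was -5.64, -5.17 and -5.67, and at 16 h it was -4.15, -3.76 and -4.30. A level relative to the 75th percentile is thus a level relative to a reference that was itself higher at 16 h.

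Most members lay below their array's 75th percentile in dry seed and above it at 16 h. Their median level was -1.37 on dry replicate 1 and -1.36 on dry replicate 2. On the 8 h arrays it was -1.15, -0.77 and -1.58 in replicates 1, 2 and 3. On the 16 h arrays it was 1.29, 1.49 and 0.92. The array medians averaged -1.37 ± 0.0038 in dry seed (SD, n = 2), -1.17 ± 0.40 at 8 h (SD, n = 3) and 1.23 ± 0.29 at 16 h (SD, n = 3). Over the 18483 probes detected on all arrays, by contrast, the median level went from 0.47 and 0.46 in dry seed to between 0.23 and 0.27 at 16 h. The SDs of the array medians do not show the spread within single members. Within members the dry arrays had a median SD of 0.20 log2 (n = 2), against 0.097 for the probes detected on all arrays. The 2 dry arrays lay within 0.5 of each other in 51 of 65 members. In spot intensity the median member stood at 80.9 and 82.4 units on the dry arrays and at 1595, 2099 and 871 units on the 16 h arrays. In dry seed 12 of the 65 members lay above the 75th percentile, at 8 h again 12, and at 16 h 62.

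The rise after 8 h ran from 4.01-fold to 19.4-fold among the members, with a median of 4.81-fold (2.27 log2). Over the 18483 probes detected on all arrays the median change from 8 h to 16 h was -0.35 log2 at this scaling. The median over all 42748 probes moved the other way, from -2.81, -2.73 and -3.10 on the 8 h arrays to -2.52, -2.54 and -2.57 on the 16 h arrays in the deposited table. Only 2 members rose by 4 log2 or more and 8 by 3 to 4. A further 7 rose by 2.5 to 3, another 22 by 2.2 to 2.5, and the remaining 26 by 2 to 2.2, so that 40% of the members lay within 0.2 log2 of the limit. Relative to dry seed the members stood 3.31-fold to 24.1-fold higher at 16 h, with a median of 5.82-fold. Every 16 h array was above every 8 h and dry array in all 65 members, a separation that 21.6% of the probes detected on all arrays also showed in the same direction. The gap between the lowest 16 h array and the highest 8 h array was 0.35 to 3.36 log2, with a median of 1.45.

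The limma fit over 28792 tested probes called all 65 members higher at 16 h than at 8 h (Benjamini-Hochberg adjusted p under 0.05). It called 8412 of all tested probes higher, which is 29.2%, and 8935 lower. After spike-in centring it called 22147 higher and 696 lower, and all 65 members stayed among the higher ones. The rule that chose the members used this contrast, so nothing is read from the count of members.

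Relative to the 75th percentile, few stored transcripts rose by this much, and most that did already stood above their dry mean at 8 h. Of the 18483 probes detected on all arrays, 214 (1.16%) stood at least 2 log2 higher at 16 h than at 8 h. In 144 of the 214 the 8 h mean already lay more than 0.5 above the dry mean, in 5 it lay more than 0.5 below, and the other 65 are the members. From 8 h to 16 h the median rise was 2.27 log2 in the members and 2.32 in the 144 early probes. At 8 h a median of 6.62% of the eventual 16 h change was present in the members, with a range of -20.0% to 19.2%, and a median of 30.8% in the early probes, with a range of 14.5% to 62.3%. Both statements depend on the setting. After spike-in centring 2131 probes met the whole rule, and without 8 h replicate 2 the rule found 148, of which 92 were gained. With all arrays, 62 of the 92 had an 8 h mean more than 0.5 above dry seed and 56 rose by under 2. Some of the 62 were therefore not among the 144. The limit at 0.5 that separates these classes was set by the rule, so the contrast between them was not tested.

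The members adjoin their neighbours at both limits. The nearest rises inside the limit of 2 were 2.00, 2.01 and 2.02 log2, and the nearest outside were 1.99, 1.98 and 1.98. A total of 34 probes with an 8 h mean within 0.5 of dry seed stood 1.8 to 2 higher at 16 h and were thereby left out, against 26 members that rose by 2 to 2.2. At the other limit the largest 8 h differences inside 0.5 were 0.49, 0.49 and 0.48, and the smallest outside were 0.50, 0.51 and 0.51. Of the members, 46 had an 8 h mean above the dry mean and 19 below it, with a median difference of 0.20 log2, and 29 lay within 0.25. Among all probes detected on all arrays the median difference between 8 h and dry seed was -0.10.

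The largest rise after 8 h belonged to the clone probe GMFL01-36-L24-R_541, listed under accession BW673833.1. Its level was -0.64 and -0.44 on the dry arrays, -0.52, 0.0036 and -0.18 on the 8 h arrays, and 4.20, 4.58 and 3.37 on the 16 h arrays. The dry and 8 h arrays overlapped and every 16 h array stood at least 3.36 log2 above the highest 8 h array. This was a rise from 8 h of 4.28 ± 0.31 log2 (SE from the limma fit), or 19.4-fold. GMFL01-06-L03-R_551, listed under BW653680.1, was next. It stood at -1.20 and -1.13 in dry seed, at -1.70, -0.58 and -1.58 at 8 h, and at 2.65, 3.54 and 2.76 at 16 h. The 8 h arrays lay on both sides of the dry ones, with replicate 2 the highest, and the rise was 4.27 ± 0.35 log2 (SE), or 19.3-fold. The third in order rose by 3.38 log2. The rise of GMFL01-36-L24-R_541 was 4.91 log2 within slide 1 and 3.45 within slide 2, and that of GMFL01-06-L03-R_551 was 3.17 with normexp background.

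A level near the dry mean on every 8 h array and then a step, on each slide and without any 1 array, was shown by 6 members. The 6 members were singled out after their values were seen. In each, all 3 of the 8 h arrays lay within 0.5 of the dry mean, slide 1 and slide 2 each met the rule alone, and the rule still held with any 1 array left out. Of the 6, 4 also met the rule under each of 4 other scalings (median, detected-probe percentile, spike-in and quantile), and AW185627.1_114 and GMFL01-49-A18-R_279 did not. Normexp background was not among the scalings of this check. BE822215.1_563 stood at -0.93 and -0.77 in dry seed, at -1.01, -1.06 and -0.83 at 8 h, and at 2.02, 2.22 and 2.09 at 16 h. Its replicates spanned 0.23 log2 at 8 h and 0.20 at 16 h, against a rise of 3.08 ± 0.14 (SE), or 8.43-fold. GMFL01-35-L23-R_436 stood at -1.61 and -2.05, then at -1.70, -1.81 and -1.52, then at 1.49, 1.62 and 0.97. GMFL01-18-A20-R_317 stood at -2.22 and -1.63, then at -2.02, -1.65 and -2.08, then at 1.10, 1.42 and 0.83. Both had 8 h arrays inside or close to the span of their dry arrays, and they rose by 3.04 ± 0.22 and 3.03 ± 0.23 log2 (SE).

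The other members of these 6 had smaller steps. GMFL01-20-B22-R_568 stood at -1.70 and -1.62 in dry seed, at -1.42, -1.39 and -1.96 at 8 h, and at 0.85, 1.49 and 0.73 at 16 h. AW185627.1_114 was above the 75th percentile already in dry seed, at 0.08 and 0.54, and stood at 0.04, 0.39 and 0.31 at 8 h and at 2.05, 3.00 and 2.65 at 16 h. Their rises were 2.61 ± 0.25 and 2.32 ± 0.26 log2 (SE), and the stages before 16 h overlapped in both. GMFL01-49-A18-R_279 had the tightest 16 h arrays of any member, at 1.39, 1.27 and 1.27, after -1.16 and -0.94 in dry seed and -0.84, -0.66 and -0.80 at 8 h. Its 8 h arrays were all above both dry arrays, by a mean of 0.28, and the rise after 8 h was 2.08 ± 0.13 log2 (SE), or 4.23-fold.

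For most members, steadiness at 8 h was a property of the mean and not of each array. All 3 of the 8 h arrays lay within 0.5 of the dry mean in 11 of 65 members, against 64.9% of the probes detected on all arrays. In 31 members 2 of the 3 arrays did, against 20.5% of the probes detected on all arrays. In 19 members 1 did (against 10.9%), and in 4 members none did (against 3.61%). In 14 members at least 1 of the 8 h arrays was over 0.5 above the dry mean while another was over 0.5 below it, which held for 1.13% of the probes detected on all arrays. In 56 members the 8 h arrays overlapped the dry ones (67.7% of the probes detected on all arrays). They lay wholly above the dry arrays in 8 members, against 1972 of the 18483 probes detected on all arrays. They lay wholly below in 1 member, against 4001 of the 18483.

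The departures went the same way in most members. Replicate 2 was the highest of the 8 h arrays in 47 of 65 members, compared with 21.1% of the probes detected on all arrays, and replicate 3 was the lowest in 42, compared with 25.4%. The same order was present in the 144 probes already up at 8 h, with replicate 2 the highest in 131 and replicate 3 the lowest in 111. On replicate 2 the members lay a median of 0.56 log2 above their dry mean, with 40 of them over 0.5 above it and 3 over 0.5 below. On replicate 3 they lay at a median of -0.21, with 2 over 0.5 above and 19 over 0.5 below, and on replicate 1 at a median of 0.17, with 12 above and 5 below. The probes detected on all arrays had medians of -0.07, -0.19 and -0.03 on replicates 1, 2 and 3. Members were thus higher on the replicate where the median probe was lowest. As a share of the change between dry seed and 16 h, the median member had covered 5.92% on replicate 1, 22.3% on replicate 2 and -8.21% on replicate 3.

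The widest spread was in 9 of 65 members, whose 8 h arrays lay more than 2 log2 apart. Such a spread was also present in 20 of the 144 probes already up at 8 h and in 0.44% of the probes detected on all arrays. In all 9 members, replicate 2 was the highest and replicate 3 the lowest, as in 33 of the 65 members and 12.0% of the probes detected on all arrays. Dry replicate 2 stood above dry replicate 1 in all 9, and in 39 of the 65. BU547817.1_453, which ranked 11 by its rise and was picked after its values were seen, stood at -0.33 and -0.26 in dry seed, at 0.30, 1.67 and -2.23 at 8 h, and at 2.92, 3.33 and 2.39 at 16 h. Its 8 h replicates spanned 3.90 log2, more than the mean rise of 2.97 ± 0.86 (SE), and its 8 h mean differed from dry seed by 0.21 ± 0.97 (SE). Replicates 2 and 3 at 8 h were on the same slide. Replicate 2 also had the most probes above background among the 8 h arrays (26835, against 25355 and 19559) and the highest 75th percentile relative to the spike-ins, and replicate 3 had the highest negative controls. The part of these differences in the order of the 8 h arrays was not tested.

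The 16 h arrays differed less than the 8 h arrays, in the members and in the probes detected on all arrays alike. Their departures also leaned one way. Replicate 2 was the highest in 42 of 65 members, compared with 30.3% of the probes detected on all arrays, and replicate 1 in 22, compared with 32.6%. Replicate 3 was the highest in 1 member, compared with 37.1% of the probes detected on all arrays. Replicate 3 was the lowest of the 16 h arrays in 46 members, compared with 34.4% of the probes detected on all arrays. Replicate 1 was the lowest in 15 members and replicate 2 in 4. Of the 144 probes already up at 8 h, replicate 3 was the highest in 28 and the lowest in 80. Replicates 1 and 2 at 16 h were on slide 1 and replicate 3 was on slide 2. The part of the slide in these counts was not tested. The median SD over 16 h arrays was 0.34 log2 for members (n = 3) and 0.16 for the probes detected on all arrays, and at 8 h it was 0.45 and 0.21 (n = 3). For the 144 probes already up at 8 h it was 0.25 at 16 h and 0.60 at 8 h. The 16 h arrays lay within 0.5 of each other in 24 members and over 1 apart in 12. BU761201.1_515, the fourth by its rise, had the widest 16 h span at 2.16 log2, with 2.48 and 2.23 on replicates 1 and 2 and 0.33 on replicate 3, and stood at -1.86 and -1.43 in dry seed and at -1.81, -1.04 and -1.49 at 8 h. In it too, every 16 h array was above every other array.

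Membership depended on single arrays and on the slide. Without 8 h replicate 3 the rule kept 35 of the 65 members, since 24 of them then lay over 0.5 above dry seed at 8 h and 18 rose by under 2. Without 8 h replicate 2 the rule found 148 probes, among them 56 of the 65. Of the 92 gained, 62 had an 8 h mean over 0.5 above dry seed with all arrays, and 56 rose by under 2 with all arrays. Left out one at a time, the other 6 arrays kept between 50 and 65 members, and 16 members were kept whichever array was left out. Slide 1, with 1 dry, 1 array at 8 h and 2 at 16 h, met the rule in 44 of the 65 members, and slide 2, with 1 dry, 2 at 8 h and 1 at 16 h, in 33. In 19 members both slides met it.

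The size of the rise and the membership depended on the scaling. All 65 members were higher at 16 h than at 8 h under median centring, the percentile taken over detected probes, spike-in centring, quantile normalization, normexp background and the deposited value table. A rise of at least 2 log2 was the rule, and most of these scalings shift all probes of an array alike, so this count was largely fixed by the choice and supports nothing. The median rise was 1.93, 2.61, 3.69, 2.43, 1.52 and 2.27 log2 in that order. The median over the probes detected on all arrays moved too, and was -0.68, -0.01, 1.08, -0.22, -0.20 and -0.34. Relative to the spike-ins the members stood 3.43 to 5.70 log2 higher at 16 h than at 8 h, and 60 of them still met the rule, but so did 2071 other probes, since most of the array then lay higher at 16 h. With normexp background 17 members met the rule, as 45 rose by under 2 log2.

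The dry and 8 h values of many members were close to the lower end of what the arrays resolved. In 30 of 65 members at least 1 dry or 8 h value lay within 1 log2 of the lowest signal that was well above background on that array, compared with 11.9% of the probes detected on all arrays. The same held for 58 of the 144 probes already up at 8 h, so it was not particular to the members. The median member stood 1.54 log2 above that floor on dry replicate 1 and 1.23 above it on 8 h replicate 3, but 2.42 to 3.55 above it on the other dry and 8 h arrays and 5.84 to 6.98 on the 16 h arrays. The extraction software's own error estimate had a median over members of 12.1% of the signal for dry seed. The median was 11.7% for the 8 h stage, and the highest value of any member at 16 h was 10.1%. No member had an outlier spot or a saturated spot on any array. Detection on every array was part of the rule. With detection asked of the 16 h arrays only, 849 probes met the other conditions.

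By identifier, 34 of the 65 members were clone probes whose names begin with GMFL01, each listed under a BW accession, and 31 carried other sequence accessions. Clone probes made up 52.3% of the members, 79 of the 144 probes already up at 8 h, 5729 of the 18483 probes detected on all arrays and 21.9% of the soybean probes on the array. The other accessions began with CX in 7 members, AW in 6, BU in 5, BE and CD in 3 each, BI, BM and CO in 2 each, and CA in 1. Every identifier on the array occurs once, so no member had a second probe of its own sequence by which to check it, and members that stand for the same gene could not be recognised. The members were spread over the array surface, with 12, 19, 17 and 17 in 4 successive blocks of equal numbers of rows, where the probes detected on all arrays had 23.7%, 26.5%, 26.1% and 23.6%.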

How the data were processed

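Spot intensity was measured on 8 Agilent arrays of 1 colour. Per the file headers, spots were quantified by the authors in version 10.7.3.1 of Agilent's Feature Extraction. The deposited processed signal is a linear intensity, detrended and background-subtracted array by array and not normalized between arrays. The authors' deposited table of the series is in log2 units. Compared with the scanner data, its values equal log2 of the processed signal minus the 75th percentile of the array up to a constant of -0.0027 to -0.00084, and their column medians lie between -3.10 and -2.52. Labelling started from 200 ng of total RNA, per the labels' protocols. The flag for a spot well above background was used as deposited.

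Groups and replicate numbers came from the sample titles. Levels were log2 of the processed signal minus the array's 75th percentile over 42748 soybean probes, with 1417 control spots left out. Group means defined the 65 members. Standard errors and the calls for 16 h against 8 h came from a limma 3.58.1 fit in R 4.3.3 to all 8 arrays over the 28792 probes that passed the background flag on all arrays of 1 or more stages, with 0 to 4 outlier spots an array left out. That fit was tested on simulated data. The spike-in reference was the mean of 7 of 10 E1A control probes that were above background and not saturated on all arrays. Arrays have no read depth, and their number limits the precision. Python 3.11.15 with pandas 2.3.3 was used for the rest.

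The members, the gene lists and the rule for named probes (the 2 largest rises where no table gives gene names) were chosen with earlier results of these data known. Lists by gene product, among them cell wall, cell cycle, storage protein and reserve mobilisation genes, could not be run because no probe has a gene name here. Alternatives were other scalings, normexp background on the median signal with offset 50 (the mean signal is not used here), the deposited table, other limits in the rule, arrays left out, slides alone, and block terms in the limma fit.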

Additional observations from a re-analysis of the deposited data

How the results depend on the processing

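All 65 members had a higher mean at 16 h than at 8 h under every scaling, which the rule largely fixed, and limma called 58 to 65 of them higher over 19 alternatives, with 58 under normexp background. The number of probes meeting the rule was 65 at the settings reported. It became 26 with median centring, 112 with the percentile over detected probes, 2131 with spike-in centring, 101 with quantile normalization and 117 within slide 1. It was 29 and 131 with the 8 h limit at 0.25 and 1, 870 and 10 with the rise limit at 1 and 3, and 849 with detection on the 16 h arrays only. It was 11 where every 8 h array had to lie within 0.5 of the dry mean, a setting chosen after seeing the data. With 1 array left out it ranged from 49 to 148. Normexp background gave 50, of which 17 were among the 65. The median rise after 8 h moved from 2.27 to 3.69 log2 with spike-in centring and to 1.52 with normexp background, whose offset is large beside the dim members. The median difference between 16 h and dry seed moved from 2.54 to 2.10 (median centring), 3.00 (detected probes), 3.99 (spike-ins), 1.93 (normexp) and 2.28 (slide 2 alone). Over all tested probes the count called higher at 16 h than at 8 h by limma moved from 8412 to 22147 (spike-ins, 696 lower), 1810 (normexp, 5295 lower) and 3915 (over the 18483 probes detected on all arrays, 8775 lower). Median centring gave 5812 higher and 11357 lower, and the percentile over detected probes 11628 and 6035. The cause of these moves was not tested beyond what each setting does by construction. The replicate block left 65 members and 8187 of all probes called higher. Same-numbered arrays had correlations of deviations of 0.15, -0.0009 and -0.05 between 8 h and 16 h, 0.15 and 0.17 between dry seed and 8 h, and 0.19 and 0.06 between dry seed and 16 h. Not every pair was over 0.1, so the numbers were not taken to pair the samples. The same-numbered pairs over 0.1 each shared a slide, as did the pair at -0.05, so number and slide cannot be told apart in them.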
